A study of Homo sapiens with 3 samples.

Results

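Neurogenic cells of a melanocyte differentiation culture expressed INSM1, POU3F2 and ONECUT2 at high levels at D23, while NEUROG1, NEUROG2, NEUROD1, POU4F1 and ISL1 were at or near the detection limit. In the neural crest-like cells beside them POU3F2 was the most abundant of these factors, with INSM1 far lower. The 9 genes described here are the proneural and neuronal transcription factors NEUROG1, NEUROG2, NEUROD1, INSM1, POU3F2, POU4F1, ISL1, ONECUT1 and ONECUT2. They were chosen by symbol among the 36601 genes of the count tables, and each symbol matched 1 row. Single-cell RNA libraries had been made from induced melanocytes after 23, 32 or 44 days of differentiation (D23, D32 and D44), with 1 library for each time. The starting line is given as induced pluripotent stem cells in the titles and design text but as H9, an established human embryonic stem cell line, in the other fields, and the labels do not settle this conflict. All 3 groups had been grown as embryoid bodies and then in melanocyte medium with Wnt3a conditioned medium, SCF, Endothelin-3, bFGF, cholera toxin, dexamethasone and a phorbol ester (left out once the cells were passaged), and had been frozen before library preparation. The labels give no difference in genotype or treatment between the groups. Per the paper, passaged cells were kept in medium with fetal bovine serum and without the phorbol ester. The passages behind each group are not given, so the medium may have differed with the day. D32 and D44 came from 1 induction sequenced together, apart from D23. Day, batch and any change of medium therefore cannot be told apart between D23 and the later days.

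After filtering, 15629 cells were kept, 3795 in D23, 6023 in D32 and 5811 in D44, with medians of 12574, 36375 and 42940 UMIs per cell (a UMI marks 1 captured RNA molecule). Cells were sorted into classes by the mean log level of marker genes, none of which is among the 9 factors. Neurogenic cells were gated on neuronal genes such as DCX, ELAVL3 and STMN2, and also on RFX4. Neural crest-like cells were gated on genes such as MSX1, MSX2, ZIC1, ZIC2, PAX7 and GDF7. Mesenchymal cells were gated on collagen genes and TWIST1, and melanocyte-like cells on pigment genes such as PMEL and TYR. The label melanocytes matched the gate for 62.6%, 92.0% and 99.1% of the cells of D23, D32 and D44. Neurogenic cells numbered 242 in D23 (6.38%, exact 95% interval 5.62 to 7.20), 4 in D32 and 0 in D44, and neural crest-like cells numbered 510, 133 and 7. These are ranges of a score rather than discrete types, and 23 cells of D23 lay within 0.1 below the neurogenic cut-off of 0.5 and 10 within 0.1 above it. Barcode sequences found in both of a pair of libraries numbered 16 for D23 and D32, 9 for D23 and D44 and 28 for D32 and D44.

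Proneural factors are basic helix-loop-helix (bHLH) proteins that pair with E proteins, bind E-box sequences and commit a neural progenitor to become a neuron. NEUROG1 and NEUROG2 do so in the neural tube and in the cranial and dorsal root ganglia, and NEUROD1 acts downstream of them in newly born neurons. INSM1 is a zinc finger repressor that helps progenitors leave the cycling state, POU3F2 (BRN2) is a POU factor of neural progenitors and neurons, and ONECUT1 and ONECUT2 are cut homeodomain factors of early neurons. POU4F1 (BRN3A) and ISL1 are known for sensory neurons, and ISL1 also for motor neurons.

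Levels are UMIs of a gene per 1000000 UMIs of a class (CPM), with exact 95% Poisson intervals that cover counting error only, since each day had 1 library. They are not scaled by transcript length because each UMI counts 1 molecule, and genes may still differ in how well they were captured. Of the proneural factors proper, NEUROG1 had 0 UMIs in each class of each library, and in the neurogenic cells of D23 a count of 0 allows up to 2.17 CPM. NEUROG2 had 2 UMIs in the neurogenic cells of D23, both in 1 cell (1.45 CPM, 0.175 to 5.22), and 1 UMI in the melanocyte-like cells of D32. NEUROD1 had 7 UMIs in 6 of the 242 neurogenic cells (5.06 CPM, 2.04 to 10.4), 1 UMI in the melanocyte-like cells of D23 and 0 in the neural crest-like cells. The 3 genes thus lay at or near the detection limit in all classes, and only NEUROD1 was above it in neurogenic cells, at least 13.1-fold higher than in neural crest-like cells of D23 when the latter are set at 3 UMIs. The exact lower limit, which counts the error of the 7 UMIs too, was 8.08.

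INSM1 was the most abundant of the factors in neurogenic cells. In D23 it had 856 UMIs in the neurogenic cells (619 CPM, 578 to 662) against 42 in the neural crest-like cells (5.42 CPM, 3.91 to 7.32), 0 in the mesenchymal cells and 11 in the melanocyte-like cells (0.344 CPM). The level in neurogenic cells was thus 114 times that in neural crest-like cells of the same library (83.8 to 159.7). In D32 the neural crest-like cells had 7.34 CPM (4.75 to 10.8), but 22 of their 25 UMIs came from 1 cell, with a neurogenic score of 0.466, just below the cut-off. INSM1 was spread over most neurogenic cells of D23: 214 of 242 held a UMI, those cells had a median of 3 UMIs, and the richest cell had 12.

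POU3F2 was the 1 factor with a high level in both neural classes. In D23 it had 685 UMIs in the neurogenic cells (495 CPM, 459 to 534), 458 in the neural crest-like cells (59.1 CPM, 53.8 to 64.8), 6 in the mesenchymal cells (1.82 CPM) and 17 in the melanocyte-like cells (0.532 CPM). Neurogenic cells had 8.38 times the level of neural crest-like cells (7.44 to 9.46), and neural crest-like cells had 111 times that of melanocyte-like cells (68.6 to 192). In D32 the neural crest-like cells had 104 CPM (93.1 to 115), 217 times the 0.479 CPM of the melanocyte-like cells, and all 7 neural crest-like cells of D44 held POU3F2 (39 UMIs, 158 CPM, 112 to 216). The class therefore ranked above mesenchymal and melanocyte-like cells in each library, with intervals that did not overlap. The level in neural crest-like cells of D32 was 1.75 times that of D23 (1.52 to 2.02), a comparison of 2 libraries of different batches with no replicate check.

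The ONECUT factors were highest in the neurogenic cells of D23 and near 0 in neural crest-like cells. Of the 242 neurogenic cells, only 107 held a UMI of ONECUT2 and 21 one of ONECUT1. ONECUT2 had 236 UMIs in the neurogenic cells of D23 (171 CPM, 149.6 to 194), 4 in the neural crest-like cells (0.516 CPM), 4 in the mesenchymal cells (1.21 CPM) and 48 in the melanocyte-like cells (1.503 CPM, 1.11 to 1.99). Its ratio of neurogenic to neural crest-like cells was 331 (127 to 1224). ONECUT1 followed it at a lower level, with 26 UMIs in the neurogenic cells (18.8 CPM, 12.3 to 27.6) and 0 in the neural crest-like cells of D23, which puts it at least 48.6-fold higher in the former. In melanocyte-like cells both genes stood far lower. ONECUT2 stood at 1.503 CPM in D23, 0.215 in D32 and 0.166 in D44, and ONECUT1 at 0.282, 0.479 and 0.669 CPM. Of the steps between libraries, only the lower ONECUT2 level in D32 than in D23 (0.143 times, 0.0937 to 0.218) had intervals clearly apart, and the ONECUT1 ratio was 1.70 (0.862 to 3.82) for D32 to D23 and 1.40 (1.09 to 1.79) for D44 to D32. In D32 and D44 under 3% of melanocyte-like cells held a UMI of ONECUT1 (101 of 5541 and 157 of 5757).

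POU4F1 and ISL1 were scarce. POU4F1 had 8 UMIs in 6 neurogenic cells of D23 (5.79 CPM, 2.50 to 11.4) and 1 UMI in the neural crest-like cells, a ratio of 44.8 with an interval of 6.01 to 1990.0. ISL1 had 0 UMIs in the neurogenic cells and 0 in the neural crest-like cells of D23, and its highest level was in the mesenchymal cells of D32 (24 UMIs in 19 of 225 cells, 2.92 CPM, 1.87 to 4.35). The order in neurogenic cells of D23 was INSM1, POU3F2, ONECUT2 and ONECUT1, each with an interval apart from its neighbours, and then POU4F1, NEUROD1 and NEUROG2, whose intervals overlapped, before NEUROG1 and ISL1 at 0.

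**Figure D1:**
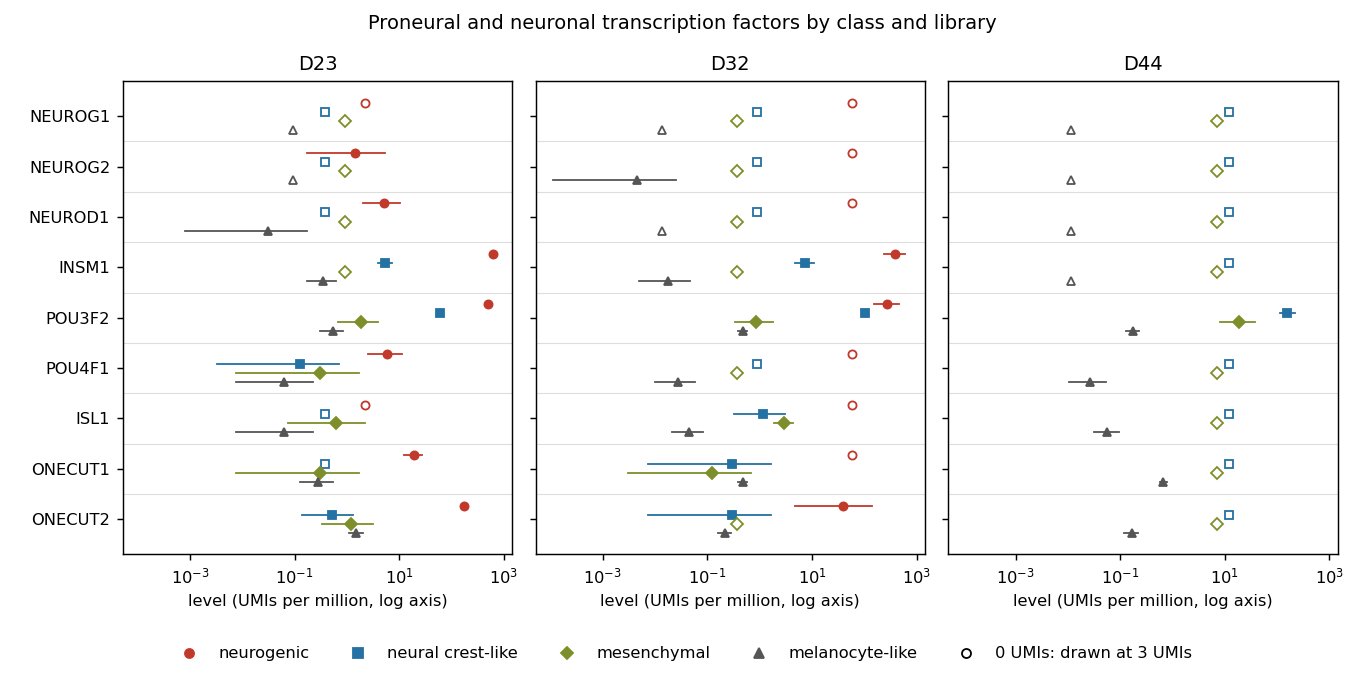
Levels of the 9 factors (rows) in CPM on a log axis, in the 4 classes (colour and symbol) of each library (panels), with 95% Poisson intervals and open symbols at 3 UMIs where a class had 0. In D23 the neurogenic cells stood at 619 for INSM1, 495 for POU3F2 and 171 for ONECUT2, whereas the neural crest-like cells stood apart from the other classes for POU3F2 (59.1) and INSM1 (5.42). The neurogenic symbols of D32 rest on 4 cells and the neural crest-like symbols of D44 on 7.

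In GRCh38 the factors lie on 8 chromosomes: NEUROG1 at chr5:135534282-135535964, NEUROG2 at chr4:112513516-112516180, NEUROD1 at chr2:181668295-181680827, INSM1 at chr20:20368104-20370949, POU3F2 at chr6:98834574-98839458, POU4F1 at chr13:78598362-78603552, ISL1 at chr5:51383448-51394730, ONECUT1 at chr15:52755053-52791078 and ONECUT2 at chr18:57435374-57491298. Promoters in RefSeq (GRCh38.p14) were found for 8 of the 9 factors, and the 250 bases before the annotated start were searched for the E-box CANNTG, the class of sequence that bHLH factors bind and that reads as the same class on both strands. It occurred in 4 of the 8, against 61.8% of all 35116 promoters of that length, and the form CAGCTG in POU4F1, ISL1 and ONECUT2, against 13.99% of all. No promoter of the 8 held CAGATG or its reverse complement CATCTG, found in 12.2% of all. For ONECUT1 and NEUROD1 the start used lies inside the gene coordinates given above, and so does the window searched. The promoters of the 2 ONECUT genes and of POU3F2 are shown, because the first 2 were high in the neurogenic cells alone and POU3F2 in both neural classes. Capitals mark E-boxes, and each reads 5' to 3' on the strand of its gene (ONECUT2 plus, chr18:57435124-57435373; ONECUT1 minus, chr15:52790337-52790586; POU3F2 plus, chr6:98834324-98834573).
ONECUT2: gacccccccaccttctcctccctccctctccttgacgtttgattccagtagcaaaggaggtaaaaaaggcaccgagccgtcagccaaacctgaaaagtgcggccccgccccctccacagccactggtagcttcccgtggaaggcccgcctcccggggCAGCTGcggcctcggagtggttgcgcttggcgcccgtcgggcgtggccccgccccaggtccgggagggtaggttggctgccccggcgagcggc
ONECUT1: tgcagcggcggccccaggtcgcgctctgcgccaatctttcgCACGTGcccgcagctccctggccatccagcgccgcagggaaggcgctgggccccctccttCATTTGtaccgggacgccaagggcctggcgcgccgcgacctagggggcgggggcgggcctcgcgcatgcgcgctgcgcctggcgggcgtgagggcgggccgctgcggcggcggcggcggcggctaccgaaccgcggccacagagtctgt
POU3F2: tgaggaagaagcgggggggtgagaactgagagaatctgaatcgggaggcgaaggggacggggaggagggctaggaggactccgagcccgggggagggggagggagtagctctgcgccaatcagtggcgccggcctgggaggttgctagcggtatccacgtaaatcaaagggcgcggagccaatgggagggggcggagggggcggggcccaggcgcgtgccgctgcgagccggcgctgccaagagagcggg
The E-box of ONECUT2 began 93 bases before the start and those of ONECUT1 209 and 149 bases before it, and the POU3F2 window held none. A match of letters is not evidence of binding.

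Whether the factors separate the neurogenic from the neural crest-like cells was tested on UMIs summed per library and class. Of the 9 factors, 6 passed the filter on low counts (ISL1, POU3F2, POU4F1, ONECUT1, ONECUT2 and INSM1), but ONECUT1 and POU4F1 did so through the neurogenic sum alone, so a difference was built into their entry and their tests are not counted. Such genes made up 4.72% of the 16509 tested. Of the other 4, ONECUT2 and INSM1 were called higher in neurogenic cells and 0 lower, where 3.45% of all genes tested were called higher and 2.97% lower. Beside the neurogenic sum, ONECUT2 passed only through melanocyte-like cells of D23, at 1.503 CPM against the 1.29 CPM needed. Neural crest-like cells lay below that level (0.516 CPM in D23, 0.294 in D32). A difference between the 2 classes compared here was thus built into the entry of ONECUT2 too. The adjusted p of edgeR's quasi-likelihood test was 0.00101 for ONECUT2 (log2 fold change 8.04, SE 0.66) and 0.0198 for INSM1 (6.16, SE 1.01). POU3F2 missed the threshold at a log2 fold change of 2.80 (SE 0.88, adjusted p 0.104 in edgeR), as did ISL1. Only D23 reached 10 neurogenic cells, so these tests rest on 1 neurogenic sum assumed to vary like the sums of the other classes. POU3F2 passed in 4 of 15 alternatives, among them the fits without D44 (log2 fold change 2.81) and without D32 (3.05). The latter compares 1 sum with 1 sum of the same library on 1 residual degree of freedom. Its p-value thus compares those sums and not the classes. In addition, INSM1 was not called by DESeq2 (adjusted p 0.547). Without D32, where 1 cell held most INSM1 of the neural crest-like class, the log2 fold change of INSM1 was 6.81.

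Against melanocyte-like cells, the class that makes up most of the culture, 3 of the 4 factors that did not enter through the neurogenic sum alone were called higher in neurogenic cells, where 9.12% of all genes tested were called higher and 9.18% lower. They were INSM1 (log2 fold change 12.09, SE 1.02, edgeR adjusted p 0.000744), POU3F2 (10.33, SE 0.98, adjusted p 0.0004) and ONECUT2 (6.73, SE 0.61), and ISL1 was not called. Without D32 the log2 fold change of INSM1 was 10.78. With DESeq2 size factors the split over all genes moved from 1506 higher and 1516 lower to 1927 higher and 1232 lower. Neural crest-like against melanocyte-like cells, with 2 sums against 3, gave 2 factors higher, POU3F2 (log2 fold change 7.54, SE 0.82, edgeR adjusted p 0.000482) and INSM1 (5.92, SE 0.89, adjusted p 0.0052), with 11.2% of all genes called higher and 8.43% lower. POU3F2 was called in each of 16 alternatives and INSM1 in 15, the exception being DESeq2 (adjusted p 0.158). The fold of INSM1 differed with the library left out, with log2 fold changes of 3.97 without D32 and 8.48 without D23. That of POU3F2 was 8.20 without D23. Each of these fits leaves 1 neural crest-like sum. In D32, 22 of the 25 INSM1 UMIs of the class came from the 1 cell just below the neurogenic cut-off. Both other gates take that cell, among others, out of the class. With all libraries kept, INSM1 was then at 4.07 (stricter gate) and 3.74 (looser gate). ISL1, POU4F1, ONECUT1 and ONECUT2 were not called there, with log2 fold changes from -2.05 to 2.74, and ISL1, at 2.74, was at -3.90 under the stricter gate.

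Shares of cells were compared at equal depth, because neurogenic cells of D23 had a median of 5271 UMIs and neural crest-like and melanocyte-like cells medians of 14460 and 12732. With each cell thinned to 3000 UMIs, 238 neurogenic cells remained. INSM1 was found in 73.9% of them (67.9 to 79.4), POU3F2 in 76.1% (70.1 to 81.3), ONECUT2 in 30.7% (24.9 to 37.0) and ONECUT1 in 6.30% (3.57 to 10.2). In melanocyte-like cells of the same library, used here for comparison without knowing that they lack these genes, the shares were 0.0424%, 0.212%, 0.424% and 0.127% of 2361 cells. Among 508 neural crest-like cells, POU3F2 was found in 15.2% (12.2 to 18.6) and INSM1 in 1.97% (0.948 to 3.59), and in D32 POU3F2 was found in 30.1% of 133 (22.4 to 38.6). At the depth deposited the POU3F2 shares were 87.6% of neurogenic cells and 37.5% and 76.7% of neural crest-like cells of D23 and D32, whose medians were 5271, 14460 and 23454 UMIs.

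**Figure D2:**
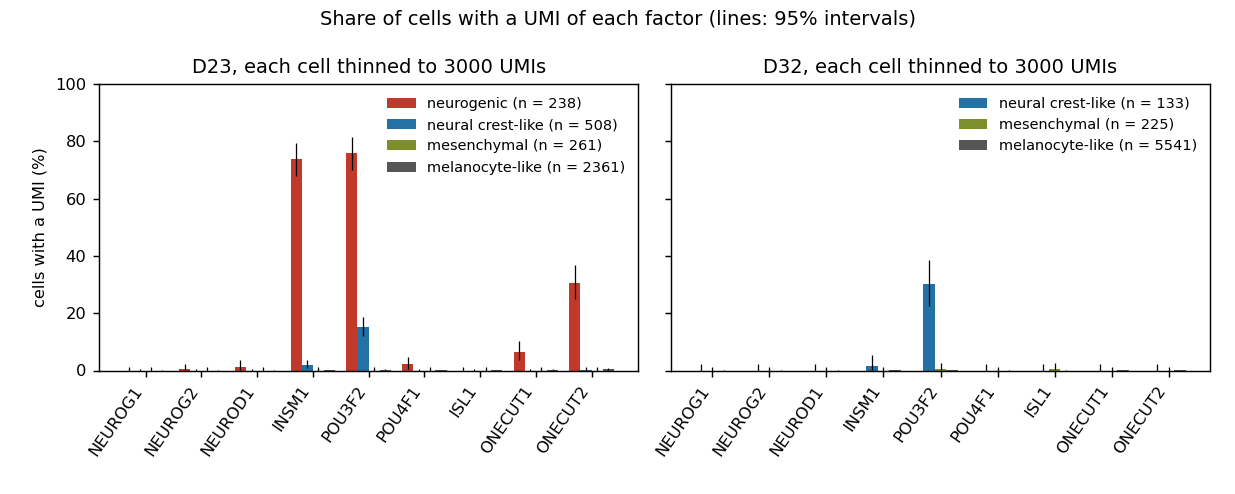
Share of cells (percent, vertical axis) with at least 1 UMI of each factor in the classes of D23 (left) and D32 (right) with 10 or more cells, after thinning to 3000 UMIs per cell, with exact 95% intervals. INSM1 and POU3F2 reached 73.9% and 76.1% of the neurogenic cells of D23, and POU3F2 alone was common in neural crest-like cells (15.2% in D23 and 30.1% in D32).

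Most neurogenic cells held several of the factors at once. At 3000 UMIs, 110 of the 238 cells (46.2%) held 2 of the 9, 52 (21.8%) held 3 and 5 (2.10%) held 4, whereas 13 (5.46%) held none. Of 508 neural crest-like cells of D23, 428 (84.3%) held none, 72 held 1 and 8 (1.57%) held 2. INSM1 and POU3F2 were found together in 137 neurogenic cells (57.6%, 51.0 to 63.9), 1.02 times the product of the single shares. INSM1 with ONECUT2 (56 cells) and POU3F2 with ONECUT2 (58 cells) were each at 1.04 times that product. The 3 abundant factors were therefore detected in the neurogenic cells about as often together as their single shares give. ONECUT1 and ONECUT2 shared 8 of the 15 ONECUT1 cells, 1.74 times the product, in few cells.

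In the neural crest-like cells of D23 the factors came together in few cells. Of the 10 cells with INSM1 at 3000 UMIs, 7 also held POU3F2 (70.0%, against 14.1% of cells without INSM1), which is 4.62 times the product of the single shares. At the deposited depth, the 23 INSM1 cells had 848 CPM of HES6, a bHLH factor that relieves HES1 repression of neurogenesis, against 10.2 CPM in the other 487. They had 220 CPM of POU3F2 against 52.4, 197 CPM of SOX2, a progenitor factor, against 60.1, and 175 CPM of the proliferation marker MKI67 against 56.2. DCX and STMN2 had 0 UMIs in those 23 cells, and the gate itself keeps cells with neuronal genes out of the class. SOX2 was found in 35.1% of POU3F2 cells against 12.8% of the others in D23, and in 15.0% against 21.5% in D32, and the difference between the libraries was not tested.

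**Figure D3:**
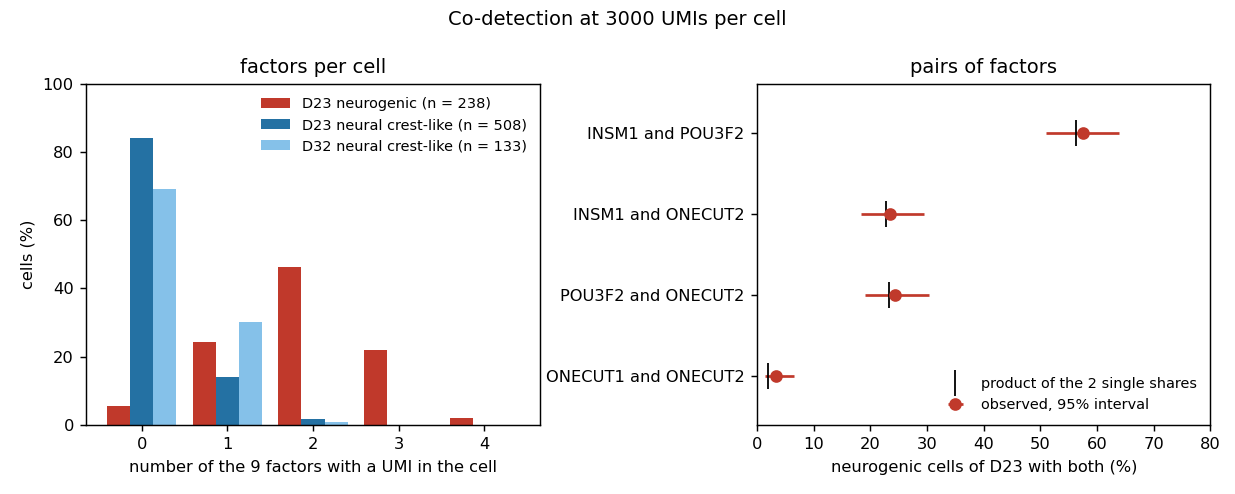
Left, share of cells (percent) by the number of the 9 factors detected, for neurogenic cells of D23 and neural crest-like cells of D23 and D32. Right, share of the 238 neurogenic cells of D23 with both genes of a pair, as points with exact 95% intervals, and the product of the single shares as ticks. Neurogenic cells peaked at 2 factors (46.2%), neural crest-like cells of D23 at 0 (84.3%), and INSM1 with POU3F2 (57.6%) lay close to the product of the single shares.

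Within the 242 neurogenic cells of D23 the factors differed in how they followed the score of the neurogenic markers, which holds none of them. Cells were ranked by that score and split into 3 score groups of 81, 81 and 80 cells, with medians of 5909, 5079 and 4845.5 UMIs. ONECUT2 stood at 58.8, 127 and 354 CPM from the lowest to the highest group, so the highest was 6.02 times the lowest (4.07 to 9.18). ONECUT1 stood at 1.90, 20.8 and 37.8 CPM, from 1, 9 and 16 UMIs. INSM1 and POU3F2 differed far less, with 507 and 697 CPM (1.38 times, 1.16 to 1.63) and 454 and 579 CPM (1.28 times, 1.06 to 1.53) in the lowest and highest groups. Over the same groups SOX2 went from 319 to 220 CPM, MKI67 from 154 to 16.5 CPM and TOP2A, another gene of dividing cells, from 655 to 73.3 CPM. The markers of the score did not all rise with it. STMN2 went from 161 to 2578 CPM, but RFX4 fell from 440 to 168 CPM. ONECUT2 was thus highest where the markers of division were lowest, and INSM1 and POU3F2 were high in all 3. The groups come from 1 library and the intervals cover counting error only.

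**Figure D4:**
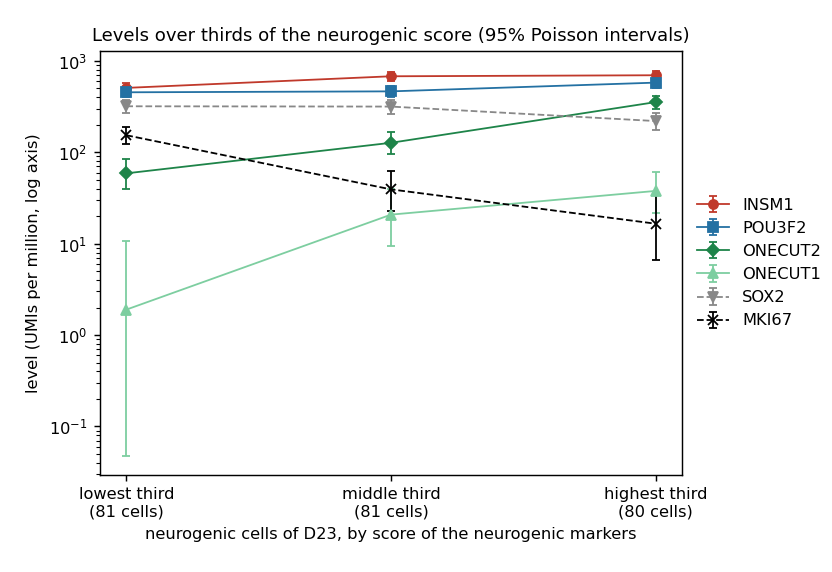
Levels (CPM, log axis) of 4 factors (solid lines) and of SOX2 and MKI67 (dashed lines) in the 3 groups of neurogenic cells of D23 ranked by the score of the neurogenic markers, with 95% Poisson intervals. ONECUT2 went from 58.8 to 354 and MKI67 from 154 to 16.5 between the lowest and highest group, while INSM1 stayed between 507 and 697.

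The other genes of the pathway were read from lists, each given by its calls in the fit of neurogenic against neural crest-like cells and by the median log2 ratio of the 2 classes in D23, with 0 counts set at 3 UMIs. That median was 0.07 over 16460 genes and 5.54 over the 6 factors above 3 UMIs in either class. A gene near 0 in 1 class enters through the other class alone, so part of the direction of a median can be built in. The medians are descriptions. Among other neurogenic bHLH factors, 7 of 12 were tested, 6 were higher and 0 lower in neurogenic cells (median 6.43, 7 genes). ATOH1, which founds the most dorsal interneurons of the spinal cord and hindbrain, had 393 CPM in neurogenic cells of D23 against 2.06 in neural crest-like cells (190.2-fold, 116 to 335). OLIG3, a factor of dorsal neural tube progenitors, had 211 CPM against 10.8, NHLH1 had 111 CPM against 0.516, and NEUROD4 had 33.3 CPM against 0 UMIs, at least 86.0-fold higher. NEUROG3, PTF1A and BHLHE22 had 0 UMIs in the neurogenic cells.

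Genes activated by proneural factors were all higher in neurogenic cells, 7 of 7 tested (median 6.20). HES6 had 5615 CPM against 43.6, the Notch ligand DLL3 1102 CPM against 15.0, and MFNG, which modifies Notch, 109 CPM against 0.516. HES6 was not confined to neurogenic cells. At 3000 UMIs it was found in 96.6% of neurogenic, 4.33% of neural crest-like and 24.8% of melanocyte-like cells of D23. DLL3 was found in 85.7%, 4.72% and 1.82% of the same classes. Of the E proteins, TCF12 was higher (466 CPM against 80.4, edgeR adjusted p 0.00485), and TCF3 and TCF4 did not pass (median of the 3, 0.78). Inhibitors of proneural factors were mixed, with 1 higher, 2 lower and 6 not called of 9 (median 0.81, 8 genes). HES1, a Notch effector that represses proneural genes, was lower (5.06 CPM against 194), as was REST, a repressor of neuronal genes outside neurons (13.7 CPM against 65.4), whereas HES5, another Notch effector, was higher (18.1 CPM against 0 UMIs, at least 46.7-fold), although 18 of its 25 UMIs came from 4 cells in the lowest of the 3 score groups.

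Dorsal interneuron genes gave 4 higher of 5 tested of 8 and 0 lower (median 7.502, 5 genes). BARHL1 and LHX9, both factors of the dorsal interneurons that ATOH1 founds, had 143 CPM against 0 UMIs (at least 369.98-fold) and 159 CPM against 0.129. BARHL2 had 21.7 CPM against 0 UMIs. Motor neuron genes gave 1 tested of 6 and 0 called, and MNX1, LHX3 and CHAT had 0 UMIs in the neurogenic cells (median 0.75, 1 gene). Sensory neuron genes gave 1 higher and 1 lower of 7 tested (median 1.81, 7 genes): PRPH, an intermediate filament gene of peripheral neurons, had 10.1 CPM against 0 UMIs, and RUNX1 had 6.51 CPM against 38.4. Paralogs of the factors gave 1 higher of 4 tested (median 3.22, 5 genes), POU3F4 with 50.6 CPM against 3.10, and POU3F3 had 150.4 CPM against 14.4 without passing (edgeR adjusted p 0.135).

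Other neuronal transcription factors were higher in 10 of 11 tested and lower in 0 (median 5.81). EBF3 had 244 CPM against 0.387, SOX11 had 4807 CPM against 331, and SCRT1 and SCRT2 had 31.8 and 21.7 CPM against 0 UMIs. Neural progenitor genes gave 1 higher of 7 tested (median 1.96), SOX2 with 288 CPM against 65.5, and PAX6 had 13.7 CPM against 0.903 without passing. Over all lists, neither a call nor a median counts as support for genes that passed the filter through the neurogenic sum alone. These were 3 of the 6 bHLH factors called (NEUROD4, NHLH1 and NHLH2), 2 of the 7 genes activated by proneural factors (DLL1 and MFNG), HES5, 2 of the 4 dorsal interneuron genes (BARHL1 and BARHL2) and 7 of the 10 other neuronal factors, SCRT1, SCRT2 and EBF3 among them.

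**Figure D5:**
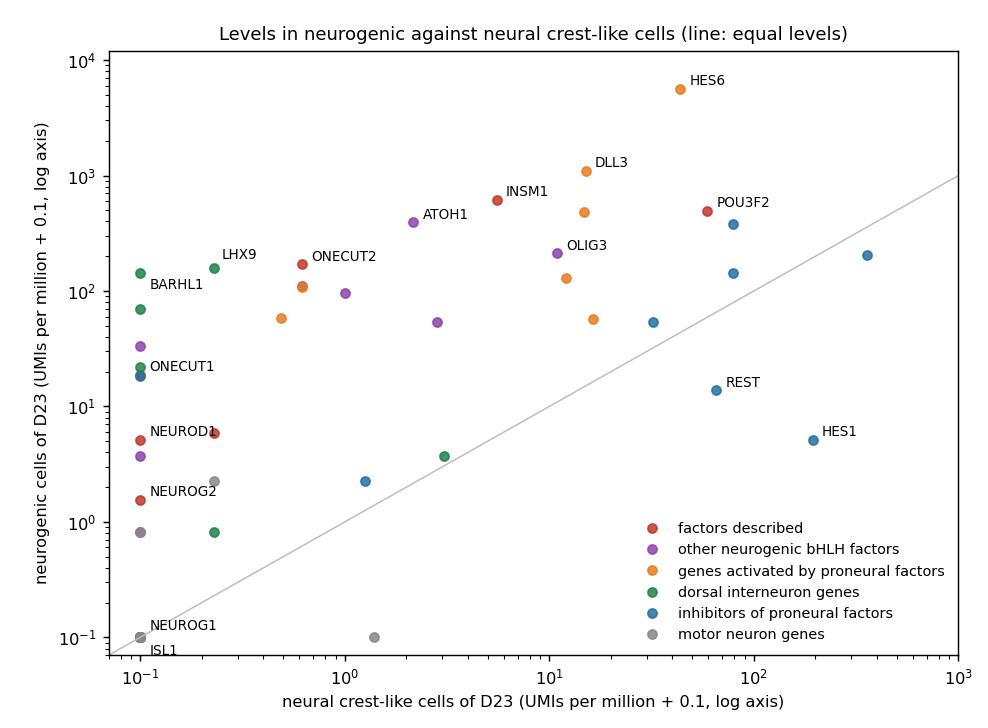
Levels in neurogenic (vertical axis) against neural crest-like cells of D23 (horizontal axis), both as CPM + 0.1 on log axes, for the 9 factors and 5 lists (colours), with a grey line of equal levels. ATOH1 (393 against 2.06), HES6 (5615 against 43.6) and INSM1 (619 against 5.42) lay far above the line, POU3F2 (495 against 59.1) nearer to it, and HES1 (5.06 against 194) below it.

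For the 4 factors with at least 100 UMIs in all kept cells, the genes most like them were taken by Pearson's r of log2(CPM + 1) over the 9 class sums among 16160 genes. The neurogenic class is 1 of these 9 points, and the sums share 3 libraries, so r is a description. INSM1 was closest to CNR1 (r = 0.999), MIAT (0.995), GDAP1L1 (0.991), KIF5A (0.991) and NTNG2 (0.9904). POU3F2 was closest to its paralog POU3F3 (0.992), then PTGR2 (0.974), EFNA3 (0.9702), MAPK10 (0.965) and GPRC5B (0.965). ONECUT2 was closest to SRRM4, a splicing factor of neurons (0.994), then CBFA2T2 (0.991), APC2 (0.9896), CELSR3 (0.988) and KCNN1 (0.986). ONECUT1 was closest to CARMIL3 (0.995), MANEAL (0.992), LRRC26 (0.992), HES5 (0.9904) and RUNDC3A (0.989).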

How the data were processed

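The 3 droplet libraries, 1 for each of D23, D32 and D44, were analysed. The authors deposited raw UMI counts per gene and barcode, not normalized, made per the submitters' processing notes with Cell Ranger 6.1.2 on hg38, and the annotation release is not given in the sources used here. With 1 library a day, p-values measure only the spread between class sums. The 9 factors and the gene lists were chosen with earlier results of these data known.

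Cells were kept with over 1000 and under 7000 genes and under 50000 UMIs in D23, with over 3000 and under 9000 genes and under 100000 UMIs in D32 and D44, and in all with over 500 UMIs and under 10% mitochondrial UMIs. This left 49846673, 241341185 and 266709913 UMIs. Marker scores are means of ln(1 + UMIs per 10000). Cut-offs were 0.5 (neurogenic), 0.4 (neural crest-like, with a mesenchymal score up to 1), 0.6 (mesenchymal) and 0.6 (melanocyte-like), set on the distribution of the scores after they were seen. Scrublet in Scanpy 1.11.5 called 56, 430 and 372 doublets, which were kept except under 1 alternative.

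UMIs were summed per library and class with at least 10 cells (9 sums) and tested with edgeR 4.0.16 on R 4.3.3 (quasi-likelihood, TMM, filterByExpr, library as a block, 3 residual degrees of freedom, Benjamini-Hochberg, threshold 0.05). The library pairs the sums, since its classes come from the same droplets. Cells were not taken as replicates and libraries were not tested against each other. In simulated sums of neurogenic against neural crest-like cells, a log2 fold of 4 was recovered for 88.5% of 200 genes among 13989, one of 2 for 31.5% among 14225 and one of 1 for 0% among 14223. The changed genes were drawn from genes with a higher level over all sums than any of the 9 factors, at 1 fixed dispersion of 0.07. These rates therefore do not apply to the factors. The SE given with an edgeR value is not an output of edgeR. It was derived as the absolute log2 fold change over the square root of the F statistic. The alternatives included DESeq2 1.42.0. Ratios within a library have exact binomial 95% intervals. Other steps ran on scipy 1.17.1, pandas 2.3.3, numpy 2.4.6 and matplotlib 3.10.9 under Python 3.11.15, and gene positions came from GENCODE 44. Text names the 9 factors, the 5 genes most like each abundant factor, and 2 to 4 genes of a list, those called with the largest change and then those at the highest level. The genes given at 0 UMIs were named outside this rule after their values were seen.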

Additional observations from a re-analysis of the deposited data

Results flagged for a closer look

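Each value here was flagged as signal in sums that the comparisons did not use, above the 3 UMIs that a count of 0 allows, and none was tested. In the 4 neurogenic cells of D32, INSM1 had 20 UMIs (393 CPM) and POU3F2 had 14 (275 CPM). INSM1 was found in all 4 cells with 1, 16, 2 and 1 UMIs and POU3F2 in 3 of them with 1, 4 and 9 UMIs, ONECUT2 had 2 UMIs in 1 cell, and the other factors had 0. None of their 4 barcodes occurred in D23. Since D23 and D32 shared only 16 barcode sequences, nothing on the origin of these cells is read from this. In the 7 neural crest-like cells of D44, POU3F2 stood at 158 CPM. ISL1 stood at 2.92 CPM in the mesenchymal cells of D32, where 8.44% of 225 cells held a UMI (5.16 to 12.9), against 0.1805% of 5541 melanocyte-like cells with a similar median depth (34764 and 36679 UMIs). At 3000 UMIs per cell 1 of the 225 held it, a level near that of 1 UMI, from which no difference is read.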

How the results depend on the processing

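Of 244 alternative values of the tested factors, 232 stayed on the same side of the threshold, 6 lost it and 6 gained it, and no called value changed sign. The gains were 4 values of POU3F2 and 2 of POU4F1, all in neurogenic against neural crest-like cells. ISL1, not called, changed sign in 3 values, from 2.74 to -3.90 and from -6.09 to 0.61 under the stricter gate and from -3.35 to 2.06 in DESeq2. ONECUT1 lost it at 5000 UMIs per cell in both neurogenic comparisons (adjusted p 0.0867 and 0.0793 in edgeR), and POU4F1 lost it against melanocyte-like cells under the stricter gate (0.0513) and gained it against neural crest-like cells with sums of at least 5 cells (0.0443). INSM1 against neural crest-like cells lost it with no term for the library (0.0974). The causes were not tested. Genes called in neurogenic against neural crest-like cells numbered 1060, and 1838 with DESeq2, 2193 with no filter on low counts and 278 with no term for the library, and 1138 to 1394 without D44 or D32. Neurogenic against melanocyte-like cells gave 3022 genes, and 2641 to 3173 without D32 or D44. Neural crest-like against melanocyte-like cells gave 3239, and 1837 without D32, 2122 without D23 and 3198 without D44. Without D23 no neurogenic sum of 10 cells was left, so no value exists. With sums of at least 4 cells or the looser gate and sums of at least 5, both chosen after seeing the data, the neurogenic class had 2 sums and gave 1439 and 1519 genes against neural crest-like cells. Against the main scaling, DESeq2 size factors moved the median log2 fold change of all genes by 0.102 and 0.253 in the neurogenic comparisons and by 0.148 in the third, where total UMIs moved it by 0.173. Detection rests on depth. As deposited and at 5000 UMIs the shares were 88.4% and 92.1% for INSM1, 87.6% and 90.0% for POU3F2, 44.2% and 37.9% for ONECUT2 and 78.5% and 82.9% for INSM1 with POU3F2 in neurogenic cells of D23, and 37.5% and 18.9% (D23) and 76.7% and 44.4% (D32) for POU3F2 in neural crest-like cells. The last was 49.2% under the stricter and 21.3% under the looser gate. The stricter gate left 300 neural crest-like cells in D23 and 59 in D32. No paired analysis by replicate number was possible because each group is 1 library; the block is the library itself.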

Other observations

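Lists outside the neuronal pathway gave the following in neurogenic against neural crest-like cells. Endocrine genes were higher in 2 of 4 tested and lower in 0 (median log2 ratio in D23 5.09): CHGA, a protein of secretory granules, had 307 CPM against 0.387 (edgeR adjusted p 0.00101), and CHGB had 15.2 CPM against 0.258. Both passed the filter on low counts through the neurogenic sum alone, so their calls are no support, and the median holds both. Synapse and transmitter genes were higher in 2 of 6 tested and lower in 0 (median 4.04, 5 genes): the vesicle protein gene SYT1 had 301 CPM against 18.3 and SNAP25 had 62.2 CPM against 4.39. The glutamate transporter gene SLC17A6 had 21.7 CPM against 0 UMIs without passing (edgeR adjusted p 0.0525), and GAD1, GAD2 and SLC32A1, genes of GABA neurons, had 0 UMIs in the neurogenic cells of D23.

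Markers of other cells gave 0 calls in edgeR, and at an unadjusted p under 0.05 only S100B and LIN28A of those tested passed. Schwann and glial genes gave 0 calls of 5 tested (median -0.06, 4 genes), with S100B at 38.3 CPM in neurogenic cells, 75.6 in neural crest-like and 505 in melanocyte-like cells of D23 and SOX10 at 1.45, 3.10 and 121 CPM. Pluripotency genes gave 0 calls of 2 tested (median 2.30, 2 genes), with POU5F1 at 1 UMI and NANOG at 0 in the neurogenic cells and DPPA4 at 85.3 CPM against 79.2. Mitosis genes gave 0 calls of 6 tested (median 0.44), with TOP2A at 358 CPM against 199.96. The genes given at 0 UMIs and those that did not pass were named after their values were seen.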
